A study of Mus musculus with 24 samples.

Results

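Plasma membrane amino acid transporters were followed through fasted mouse liver: Slc3a2, Slc7a1, Slc7a2, Slc7a5, Slc7a11, Slc38a2, Slc38a4, Slc1a4, Slc43a1 and Slc6a9. They were chosen by gene symbol, and each matched 1 gene, so the set is 10 of the 35275 genes in the read-count table. RNA was sequenced from 24 livers of male C57BL/6 mice aged 8 to 10 weeks, all fed chow and then fasted for 24 h, with 4 livers in each of 6 genotype groups. The study asked whether keeping the kinase complex mTorc1 active, by deleting its inhibitor Tsc1, dampens the fasting program of the nuclear receptor Pparα, which is strong in livers that lack Cpt2. The control mice, labelled wild type, are described in the methods of the study as littermates with floxed Tsc1 and Cpt2 alleles. Tsc1L-/-, Cpt2L-/- and Tsc1 Cpt2 double knockout (DKO) mice carried the same kind of floxed alleles with Albumin-Cre, whose promoter is active in hepatocytes, so other liver cells keep the genes. The remaining groups, Ppara KO and Cpt2L-/- Ppara KO, are known here from the labels only, which do not say which cells lost Ppara.

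Amino acid transporters of the plasma membrane set what a hepatocyte can take up for protein synthesis, glucose production and urea, and what it can release. Slc3a2 (CD98 heavy chain) carries no substrate itself: it binds light chains such as Slc7a5 (LAT1, large neutral amino acids) and Slc7a11 (xCT, cystine in exchange for glutamate) and brings them to the membrane. Several of these genes are known targets of Atf4, a transcription factor of amino acid shortage and stress whose translation mTorc1 also promotes. Slc7a2 and Slc38a4 are known as the transporters of cationic and of small neutral amino acids that mature liver uses most.

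Promoter sequence was read for the members to show one letter pattern that only some of them hold. RefSeq promoter windows on GRCm38.p6, running from 250 bases before to 50 bases after a transcript start, were found for 8 of the 10 members, in 13 windows; Slc7a2 and Slc7a5 were not matched. The core of the element bound by C/EBP and Atf factors, searched as TGATGNAA on both strands, was present in windows of 2 members, Slc7a11 and Slc1a4, and in 3.97% of all 32851 windows. The windows are printed 5′ to 3′ on the strand of the gene, with each match in capitals (TTGCATCA is the match on the opposite strand). The Slc7a11 window lies at chr3:50443564-50443863 and the Slc1a4 window at chr11:20332664-20332963, both on the minus strand.
Slc7a11: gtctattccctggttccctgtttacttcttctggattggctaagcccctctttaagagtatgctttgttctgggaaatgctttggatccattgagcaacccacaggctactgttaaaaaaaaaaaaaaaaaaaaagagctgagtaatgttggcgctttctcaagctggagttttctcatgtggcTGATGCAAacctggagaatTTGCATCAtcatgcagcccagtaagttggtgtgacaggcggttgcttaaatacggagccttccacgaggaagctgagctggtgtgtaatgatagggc
Slc1a4: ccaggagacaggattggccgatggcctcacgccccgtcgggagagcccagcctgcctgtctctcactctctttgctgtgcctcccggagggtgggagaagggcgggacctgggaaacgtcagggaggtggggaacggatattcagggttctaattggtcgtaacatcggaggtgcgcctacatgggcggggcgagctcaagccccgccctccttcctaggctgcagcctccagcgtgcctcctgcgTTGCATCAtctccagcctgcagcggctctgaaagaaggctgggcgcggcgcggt
In Slc7a11 the matches began 66 and 47 bases before the start, and in Slc1a4 the match began 4 bases before it. CACGTG, an E-box, was found in the windows of 1 member, Slc43a1, 64 bases before the start, and in 7.15% of all windows. The direct repeat bound by Ppar receptors (AGGTCA, any base, AGGTCA, on both strands) was in no window of the 8 members and in 0.0396% of all windows. CCAAT was in 37.4% of all windows and in windows of Slc43a1, Slc7a11, Slc7a1, Slc1a4 and Slc38a4, at places that did not overlap the other matches. These are letter matches in a short window and show no binding.

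Total counts ran from 14470968 to 20371204 per library. The summed level of 6 hepatocyte markers was between 25900 and 75400 CPM (counts scaled to the size of each library) in all libraries, against at most 22.8 CPM for 6 pancreatic acinar genes. Tsc1 was lower in Tsc1L-/- than in control (log2 fold change -0.65, edgeR adjusted p = 0.00491) and Ppara was lower in Ppara KO (-3.23, edgeR adjusted p = 3.21e-05), as the labels say. Cpt2 counts were not lower in Cpt2L-/- (-0.11, edgeR adjusted p = 0.605), so they do not check that label. The library labelled Cpt2L-/- Ppara KO replicate 1 stood apart: its mean distance to its own group was 109.2 against 80.98 to 87.98 for the other members of that group, and it held 91.9 CPM of Ppara and 126 CPM of Cpt2 where the other libraries of the group held 26.2 to 46.2 and 31.7 to 39.1. Ppara KO replicate 1 held 45.2 CPM of Ppara and 96.1 CPM of Cpt2 where the other libraries of its group held 13.0 to 38.1 and 38.0 to 50.9, but its mean distance to its group, 98.84, lay within the 90.13 to 108.8 of the others. Where the call of a member in a comparison with Ppara loss changed when either library was left out, the value without it is given.

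Levels of different genes were compared by the deposited FPKM, which divide by gene length. In control liver Slc38a4 was the highest member at 371 FPKM, followed by Slc7a2 at 159 and Slc38a2 at 48.6 FPKM, with no overlap between their 4 libraries each. Slc3a2 (13.0 FPKM) and Slc6a9 (9.50) came next. Slc43a1 (1.58 FPKM), Slc7a5 (1.17) and Slc1a4 (0.899) followed, and neighbours among these 3 overlapped between libraries; Slc7a1 was at 0.213 FPKM and Slc7a11 at 0. Together Slc38a4 and Slc7a2 made up 85.89% to 89.4% of the members' summed FPKM in control libraries and 70.63% to 79.07% in DKO libraries. In DKO the order changed: Slc3a2 reached 80.7 FPKM, within the range of Slc7a2 (mean 95.3 FPKM), while Slc38a2 and Slc6a9 stood at 29.5 and 29.4 FPKM. In Cpt2L-/- liver, Slc3a2 (43.2 FPKM), Slc6a9 (36.1) and Slc38a2 (32.4) overlapped.

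**Figure D1:**
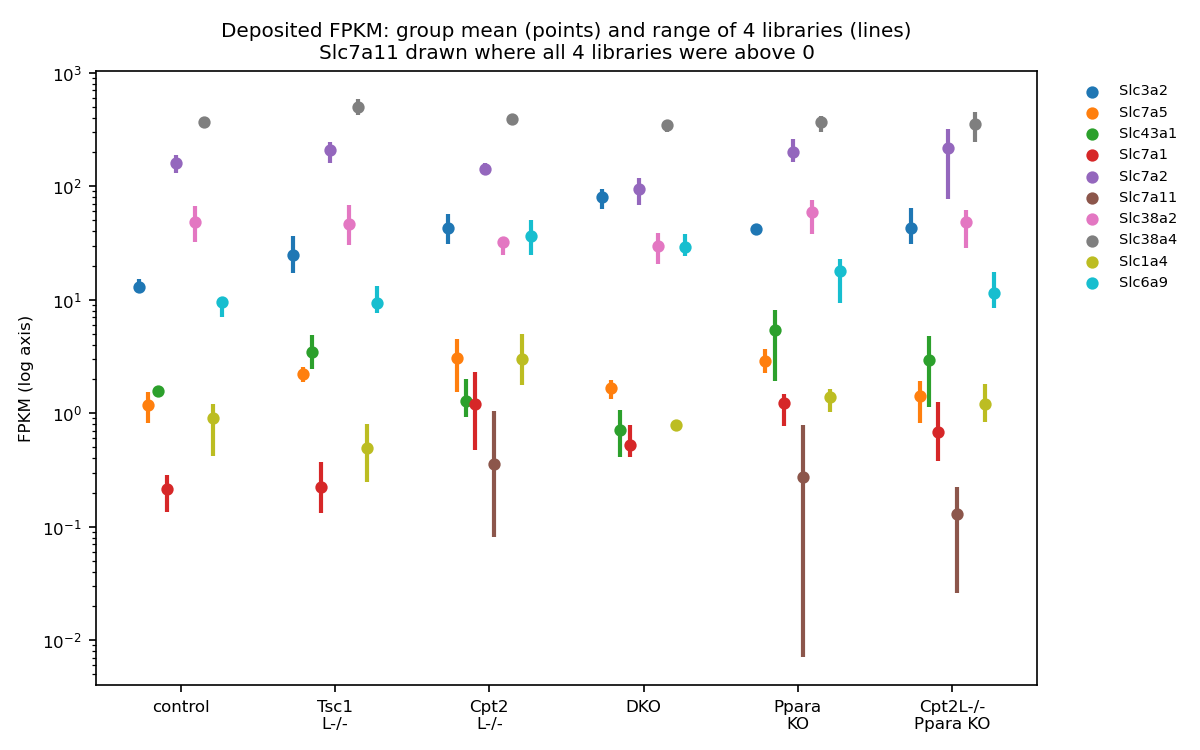
Deposited FPKM (log axis) of the members in each genotype, as the mean of 4 libraries (points) with their range (lines). Slc38a4 is the highest point in every genotype, Slc3a2 goes from 13.0 FPKM in control to 80.7 FPKM in DKO, and Slc7a11 is drawn only where all 4 libraries were above 0.

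All levels that follow are CPM after TMM scaling and compare 1 gene between libraries. Changes are log2 fold changes with standard errors (SE), from edgeR's quasi-likelihood test, and adjusted p-values are by Benjamini-Hochberg over all genes tested, with calls under 0.05. Comparisons among control, Tsc1L-/-, Cpt2L-/- and DKO came from a fit of those 16 libraries and 13641 genes, and those with Ppara from a fit of control, Cpt2L-/-, Ppara KO and Cpt2L-/- Ppara KO and 13615 genes. The comparisons share control or Cpt2L-/- libraries and are therefore not independent. An interaction is the change of the double mutant beyond the sum, on the log2 scale, of the changes in the single mutants. In whole liver, fewer cells of a type and less RNA per cell cannot be told apart. The labels do not say how the replicates were drawn, so p-values measure the spread between these libraries.

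Slc3a2 (ENSMUSG00000010095, GRCm38 chr19:8706882-8723369) lay above control in every mutant genotype. Control libraries 1 to 4 held 34.0, 40.3, 34.0 and 43.3 CPM, Tsc1L-/- libraries 109, 51.7, 44.7 and 73.6, and Cpt2L-/- libraries 121, 105, 88.8 and 168. DKO libraries were highest, at 161, 249, 257 and 188 CPM. Every mutant library lay above every control library, and DKO overlapped Cpt2L-/- only through their extreme libraries. Slc3a2 rose 3.12-fold in Cpt2L-/- (log2 1.64, SE 0.26, edgeR adjusted p = 0.000164) and 5.60-fold in DKO (log2 2.49, SE 0.26, edgeR adjusted p = 3.45e-06). In Tsc1L-/- the rise was smaller (log2 0.88, SE 0.25, edgeR adjusted p = 0.0471), and this call was lost when any of 11 libraries was left out. Without Tsc1L-/- replicate 1 it was 0.58 (edgeR adjusted p = 0.131), and without single control libraries, Tsc1L-/- replicate 4, Cpt2L-/- replicates 1 or 2 or DKO replicates 2, 3 or 4 the adjusted p was 0.0538 to 0.115. DKO exceeded Tsc1L-/- by 1.61 (SE 0.25, edgeR adjusted p = 0.000177) and Cpt2L-/- by 0.84 (SE 0.25, edgeR adjusted p = 0.0278). The difference between DKO and Cpt2L-/- was lost without Cpt2L-/- replicate 1, 2 or 3 or DKO replicate 2 or 3, with edgeR adjusted p from 0.0544 to 0.0961. The interaction of Tsc1 and Cpt2 loss was -0.03 on the log2 scale (95% interval -0.72 to 0.65, edgeR adjusted p = 0.975), so a departure from additive log2 changes was not detected beyond that interval.

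The Ppara KO libraries held 109, 130, 135 and 122 CPM of Slc3a2, and the Cpt2L-/- Ppara KO libraries 128, 94.4, 92.8 and 160. Both groups lay above control and overlapped each other and Cpt2L-/-. Against control the Ppara KO level was 3.26-fold higher (log2 1.71, SE 0.21, edgeR adjusted p = 2.69e-05), and 3.38-fold without Ppara KO replicate 1 (edgeR adjusted p = 3.87e-05). Adding Cpt2 loss to Ppara KO changed it by -0.08 (95% interval -0.48 to 0.32, edgeR adjusted p = 0.794), and the interaction of Cpt2 and Ppara loss was -1.72 (SE 0.29, edgeR adjusted p = 0.000987). That interaction was -1.78 without Ppara KO replicate 1 and -1.76 without Cpt2L-/- Ppara KO replicate 1, and stayed under the threshold.

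Slc7a5 (ENSMUSG00000040010, chr8:121881150-121907694), the light chain for leucine and other large neutral amino acids, did not follow its heavy chain in the double mutants. Control libraries held 3.03, 4.80, 3.90 and 5.44 CPM, Tsc1L-/- libraries 9.55, 7.93, 6.12 and 7.41, and Cpt2L-/- libraries 10.3, 5.45, 10.8 and 16.6. DKO libraries held 4.22, 4.62, 6.65 and 6.36 CPM. Both single mutants lay above all control libraries, whereas DKO overlapped control. Slc7a5 rose in Cpt2L-/- (log2 1.30, SE 0.27, edgeR adjusted p = 0.00146). The Tsc1L-/- difference of 0.85 (SE 0.28) missed the threshold with an edgeR adjusted p of 0.0718, and DKO differed from control by 0.34 (95% interval -0.20 to 0.88, edgeR adjusted p = 0.357) and from Tsc1L-/-, whose libraries it overlapped, by -0.51 (95% interval -1.04 to 0.02, edgeR adjusted p = 0.16). DKO was lower than Cpt2L-/- by a log2 change of -0.96 (SE 0.27, edgeR adjusted p = 0.0197), a call lost without Cpt2L-/- replicate 4 (-0.69, edgeR adjusted p = 0.0909), DKO replicate 1 (0.0602) or DKO replicate 2 (0.0679). The interaction was -1.82 (SE 0.39, edgeR adjusted p = 0.0187), and without DKO replicate 2 the edgeR adjusted p was 0.0503.

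With Ppara deleted, Slc7a5 showed the same order: 8.22, 12.4, 8.59 and 13.4 CPM in Ppara KO, and 3.04, 4.38, 6.16 and 5.92 CPM in Cpt2L-/- Ppara KO. No library of the double mutant reached the lowest Ppara KO library. Slc7a5 rose in Ppara KO against control (log2 1.31, SE 0.31, edgeR adjusted p = 0.00488), and by 1.41 without Ppara KO replicate 1 (edgeR adjusted p = 0.00419). In the double mutant it was lower than in Ppara KO (-1.14, SE 0.31, edgeR adjusted p = 0.016) and than in Cpt2L-/- (-1.13, SE 0.31, edgeR adjusted p = 0.0191). Without Cpt2L-/- Ppara KO replicate 1, the library that stood apart, the first was -0.97 (edgeR adjusted p = 0.0524) and the second -0.96 (0.0518). The second was also lost without Cpt2L-/- replicate 4 (0.0874) and without Cpt2L-/- Ppara KO replicate 2 (0.057). The interaction of Cpt2 and Ppara loss was -2.44 (SE 0.44, edgeR adjusted p = 0.00147) and stayed under the threshold without any single library.

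The ratio of Slc3a2 to Slc7a5, computed from FPKM in each library, described this separation of heavy and light chain transcripts. It was 9.962 to 14.02 in control, 8.153 to 14.26 in Tsc1L-/-, 10.33 to 24.13 in Cpt2L-/- and 11.44 to 19.62 in Ppara KO. It was 36.94 to 67.36 in DKO and 18.84 to 52.63 in Cpt2L-/- Ppara KO, where replicate 1, the library that stood apart, held the highest value and the other 3 were 18.84 to 33.73. The DKO libraries lay above all libraries of the control and single mutant groups, and no test was made of this ratio, which was looked at after the levels were known.

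**Figure D2:**
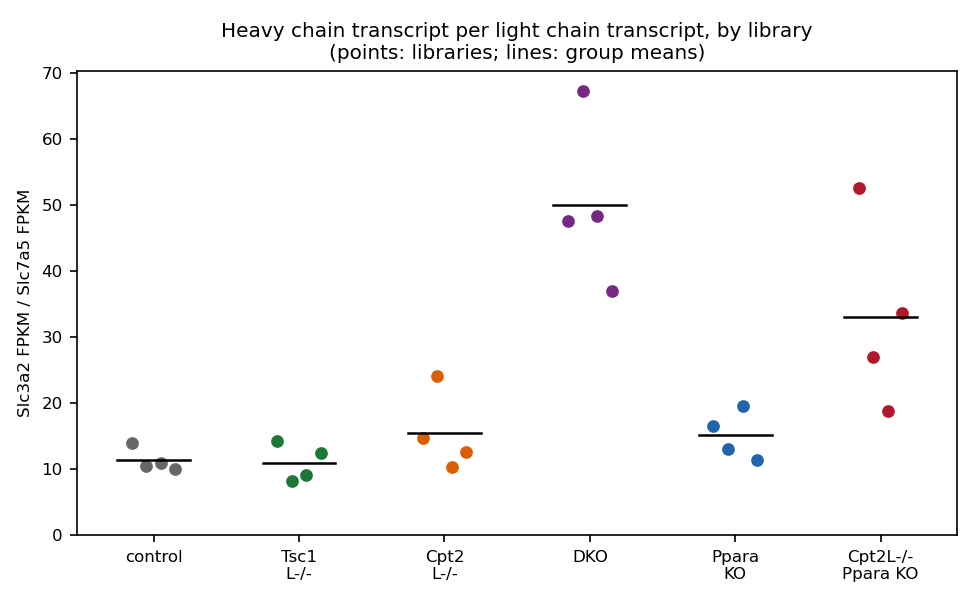
Ratio of Slc3a2 FPKM to Slc7a5 FPKM in each library (points) with the group mean (line). The DKO libraries span 36.94 to 67.36 and the control libraries 9.962 to 14.02.

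Slc7a11 (ENSMUSG00000027737, chr3:50364936-50443613), the cystine light chain, was near or below detection in control, Tsc1L-/- and DKO and was detected in the other groups. Its counts were 0 in all 4 control libraries, 0, 0, 0 and 1 in Tsc1L-/-, and 0, 1, 4 and 3 in DKO. Cpt2L-/- libraries had 17, 12, 33 and 177 counts, or 0.907, 0.761, 1.95 and 10.1 CPM. Ppara KO libraries had 31, 1, 18 and 110 counts, and Cpt2L-/- Ppara KO libraries 30, 21, 4 and 22. All Cpt2L-/- libraries lay above all control, Tsc1L-/- and DKO libraries, and replicate 4 alone held most of the Cpt2L-/- counts. Since control was at 0, folds are lower bounds against 3 counts in each control library. Slc7a11 was at least 19.3-fold higher in Cpt2L-/- and at least 14.5-fold higher in Ppara KO. Without Cpt2L-/- replicate 4 the first bound was 6.81-fold, and without Ppara KO replicate 4 the second was 5.13-fold. The mean of Cpt2L-/- Ppara KO was at least 6.91-fold higher than in control. DKO differed from Cpt2L-/- by a fitted log2 change of -4.78 (SE 0.98), and by -3.30 without Cpt2L-/- replicate 4. The gene passed the filter on low counts only through the groups in which it was detected, so these differences are given as a description without p-values, and where it is among the called members of a comparison, the count without it is also given.

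Slc43a1 (ENSMUSG00000027075, chr2:84838850-84863594), the LAT3 carrier of branched-chain and other large neutral amino acids, works without Slc3a2 and moved in opposite directions in Tsc1L-/- and DKO. Control libraries held 6.12, 7.63, 6.27 and 5.84 CPM, Tsc1L-/- libraries 11.9, 15.7, 17.8 and 8.85, and DKO libraries 3.82, 1.89, 3.33 and 1.50. Cpt2L-/- libraries held 3.58, 7.99, 4.61 and 3.81 CPM. Tsc1L-/- lay wholly above and DKO wholly below control, while Cpt2L-/- overlapped it. Slc43a1 rose in Tsc1L-/- (log2 1.07, SE 0.29, edgeR adjusted p = 0.0348) and fell in DKO against control (-1.31, SE 0.31, edgeR adjusted p = 0.00324) and against Tsc1L-/- (-2.37, SE 0.31, edgeR adjusted p = 2.22e-05). The rise in Tsc1L-/- was lost without any 1 control library (edgeR adjusted p from 0.0536 to 0.0924), without Tsc1L-/- replicate 2 (0.0814) or 3 (0.085), and in a fit of all 24 libraries (0.236). Cpt2 loss alone gave -0.40 (95% interval -0.99 to 0.18, edgeR adjusted p = 0.329). The interaction was -1.97 (SE 0.43, edgeR adjusted p = 0.0216), with an edgeR adjusted p of 0.0575 without DKO replicate 2 and 0.187 in the fit of 24 libraries.

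Ppara KO libraries held 7.08, 36.5, 29.0 and 19.7 CPM of Slc43a1, and Cpt2L-/- Ppara KO libraries 4.63, 13.2, 18.9 and 9.70. In both groups replicate 1 was the lowest and within or below the control range, and the other libraries were above control. Slc43a1 rose in Ppara KO against control (log2 1.83, SE 0.44, edgeR adjusted p = 0.00496), and without Ppara KO replicate 1 the change was 2.13 (edgeR adjusted p = 0.000498). The double mutant differed from Cpt2L-/- by 1.22 (SE 0.44, edgeR adjusted p = 0.0599) and from Ppara KO by -1.01 (SE 0.43, edgeR adjusted p = 0.087). Without Cpt2L-/- Ppara KO replicate 1 the first was 1.49 (edgeR adjusted p = 0.0286). Without Ppara KO replicate 1 the first was 1.21 (edgeR adjusted p = 0.0264) and the second -1.33 (edgeR adjusted p = 0.014).

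Slc7a1 (ENSMUSG00000041313, chr5:148327410-148399904), the CAT1 carrier of arginine and lysine found in most cells and low in liver, was raised in Cpt2L-/- and in Ppara KO. Control libraries held 1.01, 1.55, 1.95 and 1.79 CPM, Tsc1L-/- libraries 2.84, 1.15, 0.883 and 1.62, and Cpt2L-/- libraries 7.85, 3.42, 5.67 and 17.4. DKO libraries held 2.68, 2.89, 3.33 and 5.29 CPM, and Ppara KO libraries 5.12, 11.4, 11.6 and 9.27. Cpt2L-/-, DKO and Ppara KO lay above all control libraries, and Tsc1L-/- overlapped them. Slc7a1 rose 5.30-fold in Cpt2L-/- (log2 2.41, SE 0.45, edgeR adjusted p = 0.000637) and 5.86-fold in Ppara KO (log2 2.55, SE 0.46, edgeR adjusted p = 0.000677). Without Cpt2L-/- replicate 4 the first was 3.53-fold (edgeR adjusted p = 0.00207), and without Ppara KO replicate 1 the second was 6.74-fold (edgeR adjusted p = 0.000395). DKO differed from control by 1.16 (SE 0.45), which missed the threshold at an edgeR adjusted p of 0.0535. DKO was lower than Cpt2L-/- (-1.25, SE 0.42, edgeR adjusted p = 0.0472), but without Cpt2L-/- replicate 4 the change was -0.66 (0.244). That call was also lost without control replicate 2, 3 or 4, Tsc1L-/- replicate 2 or 4, Cpt2L-/- replicate 1 or DKO replicate 1, 2 or 3, at edgeR adjusted p from 0.0512 to 0.131.

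Cpt2L-/- Ppara KO libraries held 5.07, 3.34, 2.75 and 7.92 CPM of Slc7a1, which overlapped both single mutants. The differences from Ppara KO (-0.98, SE 0.43, edgeR adjusted p = 0.0986) and from Cpt2L-/- (-0.83, SE 0.43, edgeR adjusted p = 0.185) missed the threshold. Without Ppara KO replicate 1 the first was -1.20 and passed (edgeR adjusted p = 0.0488). The interaction of Cpt2 and Ppara loss was -3.38 (SE 0.63, edgeR adjusted p = 0.00175).

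Slc7a2 (ENSMUSG00000031596, chr8:40862396-40922308), the CAT2 carrier and the main cationic carrier by FPKM here, was instead lower in DKO. Control libraries held 1572, 1459, 1166 and 1051 CPM, Tsc1L-/- libraries 2041, 1922, 1177 and 1460.4, and Cpt2L-/- libraries 970.3, 1293, 1057 and 1106. DKO libraries held 695, 512, 753 and 861 CPM, below every library of those 3 groups. Slc7a2 fell in DKO against control (log2 -0.91, SE 0.20, edgeR adjusted p = 0.00171) and against Tsc1L-/- (-1.23, SE 0.20, edgeR adjusted p = 0.000145). Against Cpt2L-/- it was -0.63 (SE 0.20, edgeR adjusted p = 0.0331), a call lost without Cpt2L-/- replicate 2, 3 or 4 or DKO replicate 1, 2 or 3 (edgeR adjusted p from 0.0543 to 0.123) and in the fit of 24 libraries (0.189). The summed level of hepatocyte markers was also lowest in DKO, at 25900 to 32300 CPM against 60100 to 75400 in control and 31000 to 54800 in Cpt2L-/-. In Tsc1L-/- the sum was 37200 to 60500 CPM. Alb was the largest part of the sum, with a mean of 43400 CPM in control, 28900 in Cpt2L-/- and 12700 in DKO. All markers of this list had lower means in DKO than in control. Apoa1 was at 10600 against 13900 CPM, Ttr at 2600 against 2890 and Cyp3a11 at 816 against 2190. Serpina1c was at 248 against 540 CPM and Tat at 1650 against 3160. Against Cpt2L-/-, Ttr (1740) and Serpina1c (235) were higher in DKO and the rest were lower. The part of these markers in the result was not tested. In Ppara KO the 4 libraries held 1203, 2368, 1770.4 and 1422 CPM and in Cpt2L-/- Ppara KO 635, 1854, 2514 and 1769. Replicate 1 of the last group, at 635 CPM, was the only one of these 8 libraries below the lowest control. Without it the double mutant was higher than Cpt2L-/- by 0.89 (edgeR adjusted p = 0.0198), against 0.62 with it (edgeR adjusted p = 0.19).

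Slc38a2 and Slc38a4 are sodium-coupled carriers of small neutral amino acids such as alanine. Slc38a2 (SNAT2, ENSMUSG00000022462, chr15:96687394-96699698) was held at 321, 284, 188 and 152 CPM in control and at 86.6, 129, 129 and 168 CPM in DKO. Tsc1L-/- libraries held 188, 332, 211 and 131 CPM, and Cpt2L-/- libraries 142, 115, 165 and 173. Control spread more than 2-fold, and DKO overlapped it through replicate 4. Slc38a2 fell in DKO against control (log2 -0.89, SE 0.28, edgeR adjusted p = 0.0227), but not without control replicate 1 (0.0822) or 2 (0.0648) or DKO replicate 1 (0.0642) or 2 (0.0509), by edgeR adjusted p. Cpt2L-/- differed from control by -0.70 (SE 0.28, edgeR adjusted p = 0.0737). Ppara KO libraries held 220.1, 403, 352 and 181 CPM and Cpt2L-/- Ppara KO libraries 138, 243, 286 and 231, and no comparison with Ppara loss passed for this gene.

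Slc38a4 (SNAT4, ENSMUSG00000022464, chr15:96994823-97055956) was the only member whose group means of log2 CPM spanned less than 1. Control libraries held 1498, 1665, 1350.0 and 1568 CPM, Tsc1L-/- libraries 2223, 2414, 1720.0 and 1551, and DKO libraries 1193, 1126, 1419 and 1356. Tsc1L-/- lay wholly above DKO, and both overlapped control. Slc38a4 was lower in DKO than in Tsc1L-/- (log2 -0.64, SE 0.15, edgeR adjusted p = 0.00347), with differences from control of 0.38 in Tsc1L-/- (SE 0.15, edgeR adjusted p = 0.155) and -0.27 in DKO (SE 0.15, edgeR adjusted p = 0.181). Cpt2L-/- libraries held 1390.0, 1648, 1540.1 and 1482 CPM, Ppara KO libraries 1246, 1881, 1734 and 1214, and Cpt2L-/- Ppara KO libraries 1017.5, 1346, 1786 and 1375. Ppara KO differed from control by -0.01 (95% interval -0.42 to 0.41), and Cpt2L-/- by -0.03 (95% interval -0.33 to 0.26).

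Slc1a4 (ASCT1, ENSMUSG00000020142, chr11:20302180-20332713), a carrier of alanine, serine and cysteine, was highest in Cpt2L-/-. Control libraries held 1.72, 3.78, 4.26 and 4.80 CPM, and Cpt2L-/- libraries 8.54, 7.04, 11.3 and 20.6. DKO libraries were close together at 2.74, 3.15, 2.80 and 2.83 CPM, and Tsc1L-/- libraries held 3.33, 1.02, 1.64 and 1.81. Every Cpt2L-/- library lay above every library of the other 5 groups, since Ppara KO held 5.48, 6.48, 4.40 and 6.59 CPM and Cpt2L-/- Ppara KO 4.42, 4.80, 3.29 and 6.25. Slc1a4 rose in Cpt2L-/- against control (log2 1.67, SE 0.35, edgeR adjusted p = 0.00161). It was lower in DKO than in Cpt2L-/- (-2.02, SE 0.36, edgeR adjusted p = 0.00131), and DKO differed from control by -0.35 (95% interval -1.06 to 0.37, edgeR adjusted p = 0.485). In Cpt2L-/- Ppara KO it was lower than in Cpt2L-/- (-1.33, SE 0.33, edgeR adjusted p = 0.0131), with -0.94 (0.0669) without Cpt2L-/- replicate 4 and -1.30 (0.028) without Cpt2L-/- Ppara KO replicate 1. Of the 2 interactions, that of Cpt2 and Ppara loss passed (-1.98, SE 0.48, edgeR adjusted p = 0.00765) and that of Tsc1 and Cpt2 loss did not (-1.12, SE 0.52, edgeR adjusted p = 0.249).

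Slc6a9 (GLYT1, ENSMUSG00000028542, chr4:117834506-117875198), the glycine carrier, was raised in both genotypes that lack Cpt2 and keep Ppara. Control libraries held 37.1, 28.0, 35.4 and 36.0 CPM, Cpt2L-/- libraries 119, 86.7, 111 and 184, and DKO libraries 85.2, 92.5, 128 and 78.8. Tsc1L-/- libraries held 32.5, 29.5, 24.7 and 42.2 CPM. Cpt2L-/- and DKO lay above all control and Tsc1L-/- libraries and overlapped each other. Slc6a9 rose 3.59-fold in Cpt2L-/- (log2 1.84, SE 0.21, edgeR adjusted p = 1.02e-05) and 2.80-fold in DKO (log2 1.48, SE 0.21, edgeR adjusted p = 4.79e-05). Tsc1L-/- differed from control by -0.09 (95% interval -0.50 to 0.33), DKO from Cpt2L-/- by -0.36 (95% interval -0.76 to 0.05), and DKO exceeded Tsc1L-/- by 1.57 (SE 0.21, edgeR adjusted p = 3.9e-05).

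In Ppara KO the Slc6a9 level was 59.1, 37.4, 86.7 and 73.1 CPM, and in Cpt2L-/- Ppara KO 40.3, 32.7, 29.4 and 54.0. The double mutant overlapped control and Ppara KO and lay below all Cpt2L-/- libraries. Slc6a9 rose in Ppara KO against control (log2 0.90, SE 0.26, edgeR adjusted p = 0.0143), a call kept without Ppara KO replicate 1 (0.0181) and lost without replicate 3 (0.0592). In Cpt2L-/- Ppara KO it was lower than in Cpt2L-/- (-1.67, SE 0.26, edgeR adjusted p = 0.000523). It was lower than in Ppara KO by -0.73 (SE 0.26, edgeR adjusted p = 0.0449), but this call was lost when any of 11 libraries was left out: any control, Cpt2L-/- replicate 1 or 3, Ppara KO replicate 3 or 4, or Cpt2L-/- Ppara KO replicate 1, 2 or 3 (edgeR adjusted p from 0.0524 to 0.148). The interaction of Cpt2 and Ppara loss was -2.57 (SE 0.36, edgeR adjusted p = 0.000309).

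**Figure D3:**
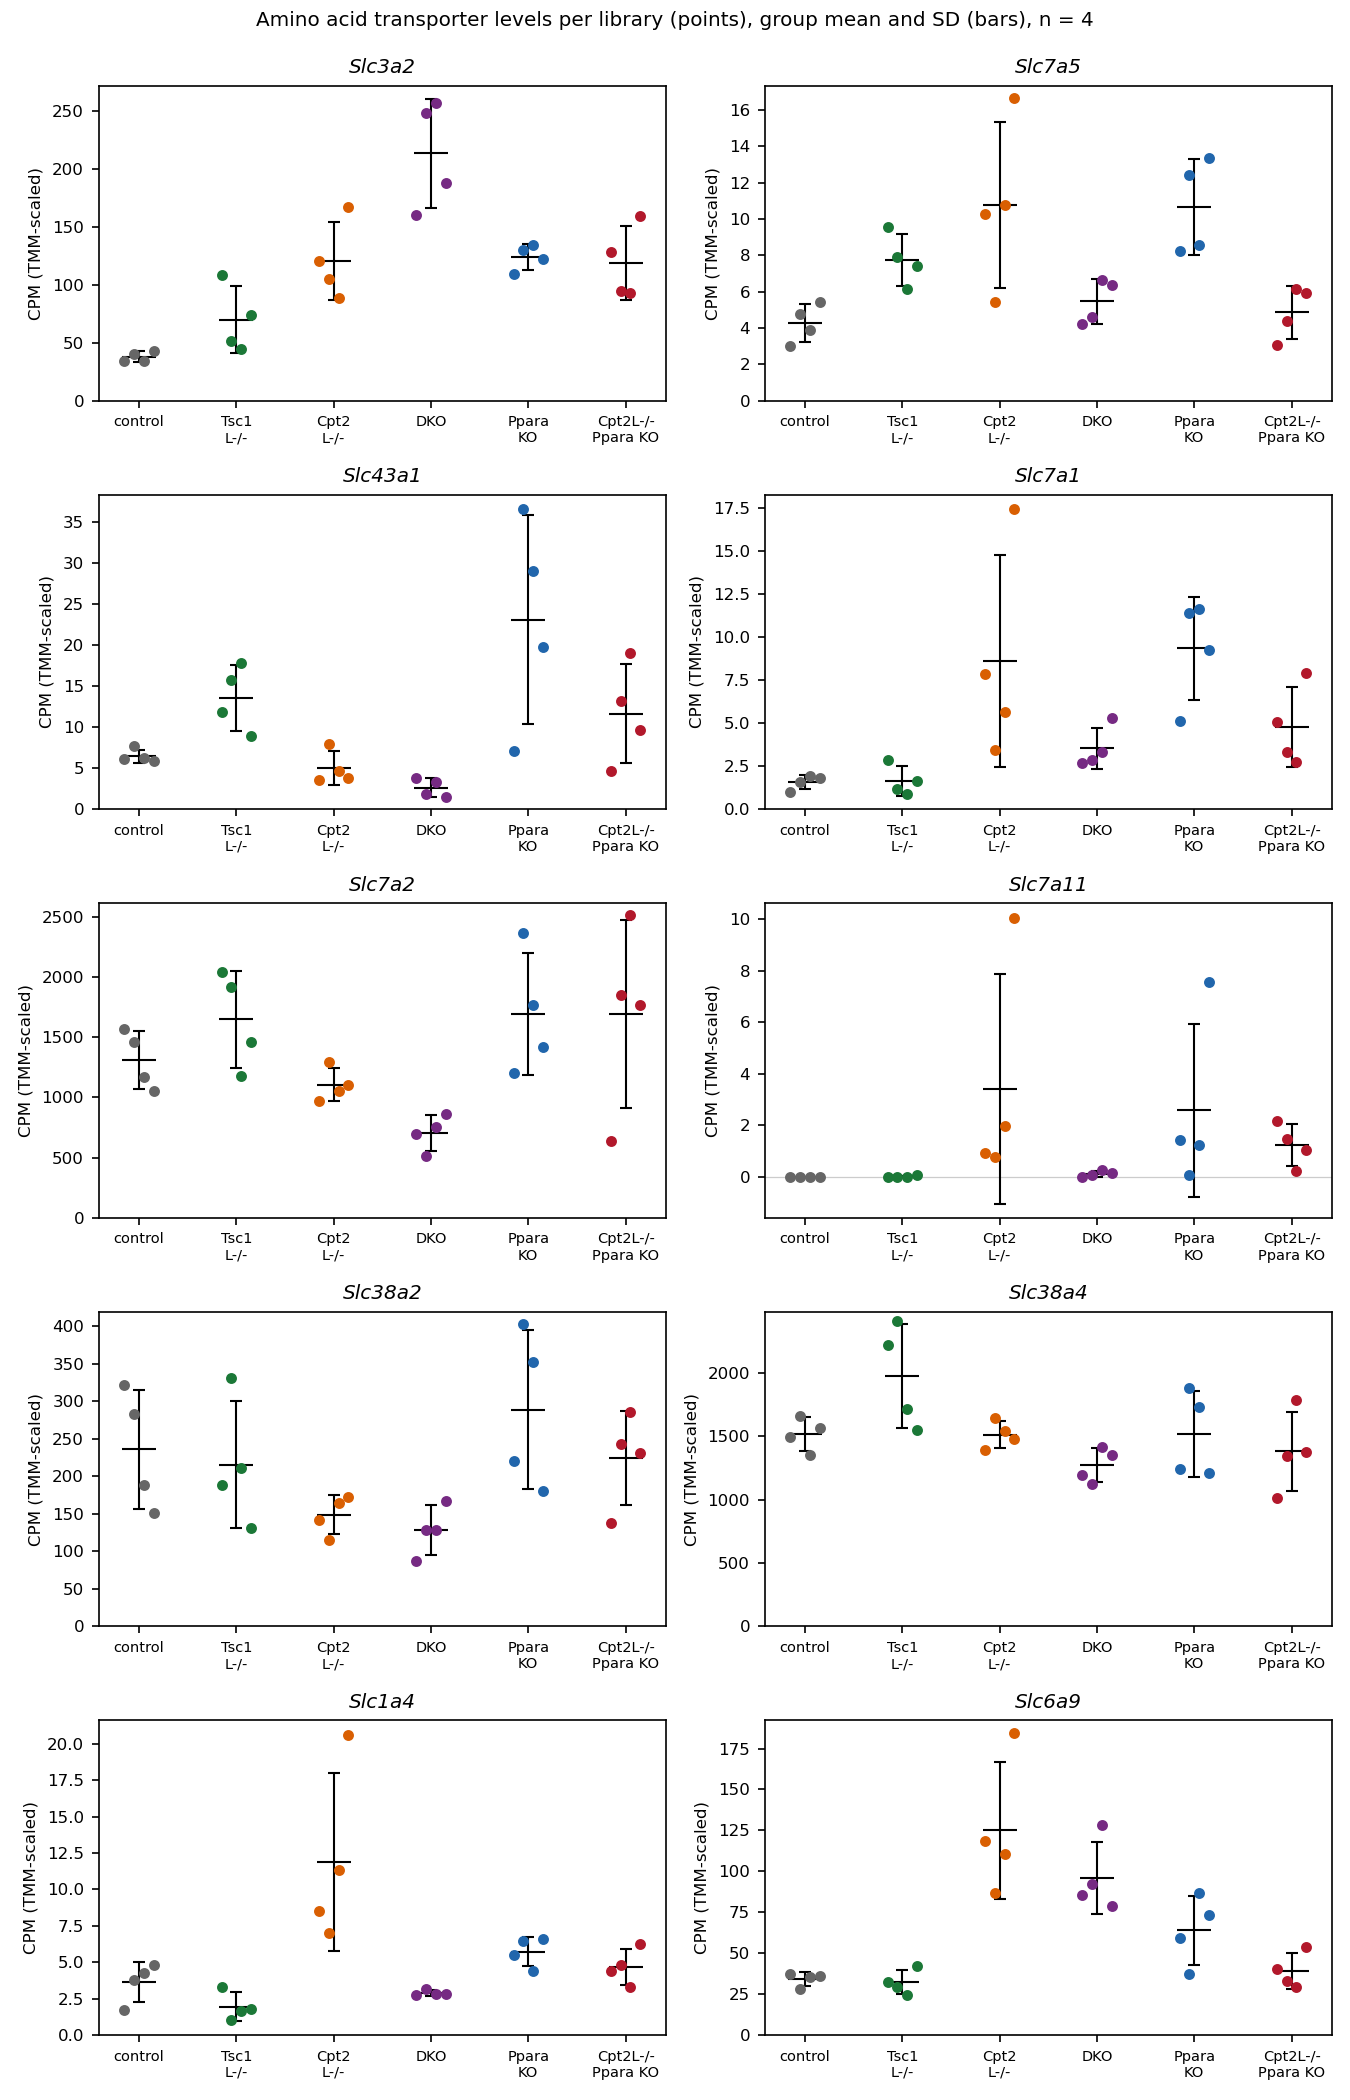
Levels of the 10 members in CPM (linear axes), with 1 point per library, the group mean (horizontal bar) and SD (vertical bar, n = 4); the SD bar of Slc7a11 runs below 0 because replicate 4 of Cpt2L-/- and Ppara KO is far above the others. Slc3a2 is highest in DKO (161 to 257 CPM), and Slc1a4 in Cpt2L-/- (7.04 to 20.6 CPM).

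By comparison, Cpt2 loss against control raised 6 of the 10 members and lowered none: Slc3a2, Slc7a5, Slc7a1, Slc7a11, Slc1a4 and Slc6a9, where 31.0% of all genes tested were called in either direction (16.2% higher, 14.9% lower). Without Slc7a11, 5 of 9 were called. The median log2 change was 1.30 over the 9 members other than Slc7a11, against -0.02 over all genes. Cpt2L-/- replicate 4 was the highest of its group for each of the 6 genes, and the 5 other than Slc7a11 remained called without it.

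Tsc1 loss against control raised 2 members, Slc3a2 and Slc43a1, where 6.64% of genes were called (4.16% higher, 2.48% lower), with a median of 0.33 over the 9 members other than Slc7a11 and 0.01 over all genes. DKO against control raised 2 (Slc3a2 and Slc6a9) and lowered 3 (Slc43a1, Slc7a2 and Slc38a2), where 36.4% of genes were called (19.3% higher, 17.1% lower), and the medians were -0.27 over those 9 and 0.02 over all genes. The count of 5 members in DKO, none of them Slc7a11, was not far from that share of all genes.

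Adding Tsc1 loss to Cpt2 loss (DKO against Cpt2L-/-) raised Slc3a2 and lowered 5 members, Slc7a5, Slc7a1, Slc7a2, Slc7a11 and Slc1a4, where 18.3% of genes were called (10.9% higher, 7.40% lower). Without Slc7a11, 5 of 9 were called, 1 higher and 4 lower. Over the 9 the median was -0.63 against -0.01 over all genes. The count of 5 was 1 without DKO replicate 2, and 2 without DKO replicate 3 or without Cpt2L-/- replicate 4. It was 3 without DKO replicate 1 or Cpt2L-/- replicate 2 or 3. Adding Cpt2 loss to Tsc1 loss (DKO against Tsc1L-/-) raised 2 members, Slc3a2 and Slc6a9, and lowered 3, Slc43a1, Slc7a2 and Slc38a4, where 32.2% of genes were called (16.9% higher, 15.2% lower). The interaction of Tsc1 and Cpt2 loss passed for 2 members, Slc7a5 and Slc43a1, both below the sum of the single changes, where 2.38% of genes were called (1.09% higher, 1.28% lower). Without DKO replicate 2 both missed the threshold, at edgeR adjusted p of 0.0503 and 0.0575.

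**Figure D4:**
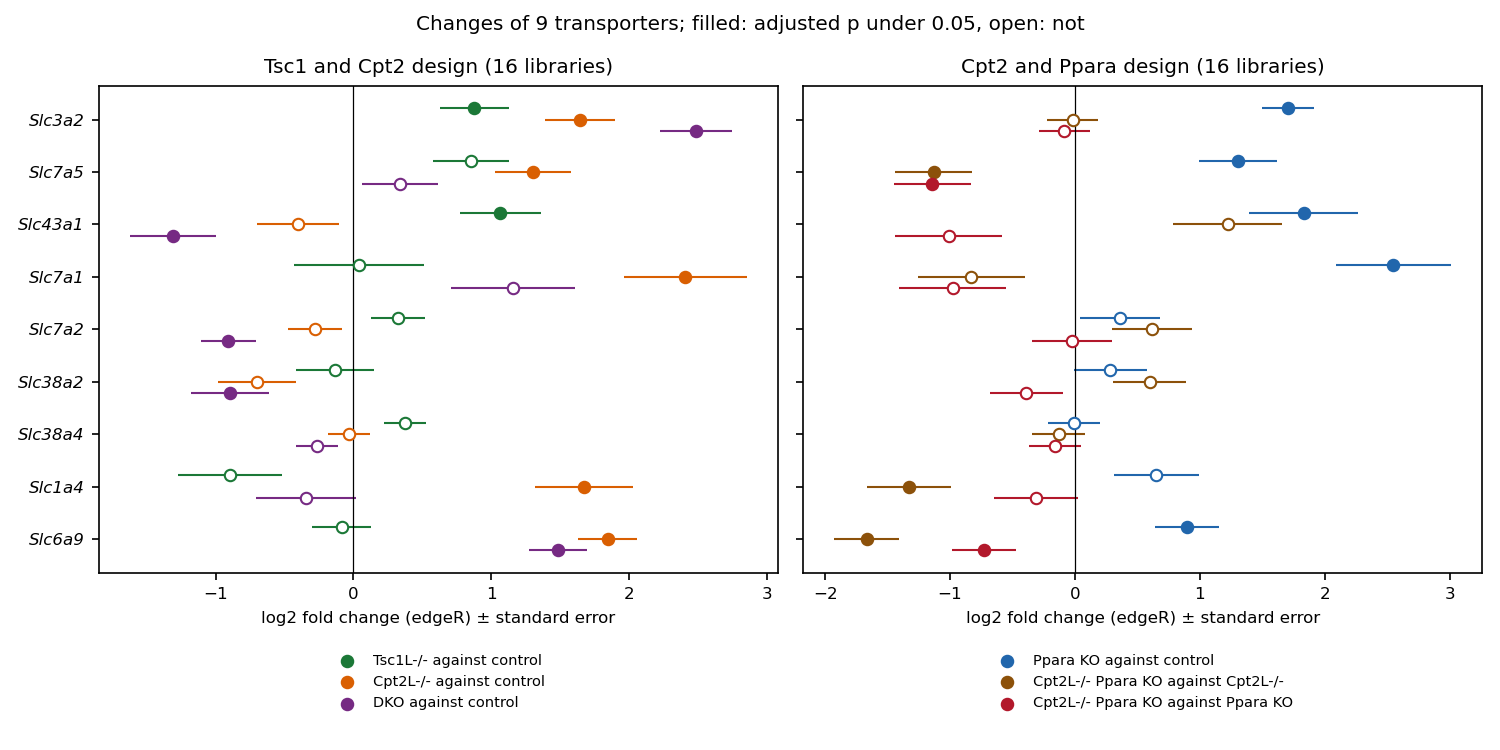
Log2 fold changes (edgeR) with standard errors for the 9 members other than Slc7a11, whose control libraries were at 0. Filled points passed an adjusted p of 0.05; in the left panel Slc3a2 goes from 0.88 in Tsc1L-/- to 2.49 in DKO, and in the right panel Slc7a5 is near -1.13 in both comparisons of Cpt2L-/- Ppara KO.

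Ppara KO against control raised 6 members and lowered none: Slc3a2, Slc7a5, Slc43a1, Slc7a1, Slc7a11 and Slc6a9, where 29.0% of genes were called (15.9% higher, 13.2% lower), and 5 of 9 without Slc7a11. The median was 0.90 over those 9 and 0.01 over all genes. Cpt2L-/- Ppara KO was lower than Cpt2L-/- for 3 members, Slc7a5, Slc1a4 and Slc6a9, where 18.4% of genes were called (10.3% higher, 8.01% lower), and for 1, Slc6a9, without Cpt2L-/- replicate 4. With its replicate 1 left out, the group was lower for 2, Slc1a4 and Slc6a9, and higher for 2, Slc43a1 and Slc7a2. Cpt2L-/- Ppara KO was lower than Ppara KO for 2, Slc7a5 and Slc6a9, where 25.5% of genes were called (12.9% higher, 12.6% lower), and for 4 without Ppara KO replicate 1. Without Cpt2L-/- Ppara KO replicate 1 both missed the threshold, at edgeR adjusted p of 0.0524 and 0.0899. The interaction of Cpt2 and Ppara loss passed for 5 of the 9 members other than Slc7a11, namely Slc3a2, Slc7a5, Slc7a1, Slc1a4 and Slc6a9, each below the sum of the single changes, where 24.0% of genes were called (12.0% in each direction). Slc7a11 also passed, but its fitted changes are against control libraries at 0 and no size is given. The count of 5 was the same when any 1 library was left out.

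Markers of other liver cells differed between groups as well. Stellate cell markers (6 of 6 found) summed to 135 to 189 CPM in Tsc1L-/- and 125 to 154 in DKO against 197 to 298 in control. In Cpt2L-/- Ppara KO, endothelial markers summed to 147 to 267 CPM against 289 to 324 in control. By mean, Stab2 (53.3 against 98.2 CPM), Kdr (45.8 against 95.1), Pecam1 (22.4 against 31.1) and Oit3 (27.5 against 37.8) were lower. Clec4g (44.3 against 28) and Lyve1 (30.3 against 19.5) were higher. Hepatocyte markers summed to 37500 to 57000 CPM in that group against 60100 to 75400 in control. Of the hepatocyte markers, Alb (a mean of 25600 against 43400 CPM), Apoa1 (9560 against 13900) and Ttr (2580 against 2890) were lower. Serpina1c was lower as well (415 against 540), whereas Cyp3a11 (2560 against 2190) and Tat (4510 against 3160) were higher. The part of these marker differences in the results of these groups was not tested. Erythroid marker genes summed to 422 to 1960 CPM in Ppara KO and 334 to 784 CPM in control, and their part in the Ppara KO results was not tested. Macrophage markers summed to 182 to 219 CPM in Cpt2L-/- Ppara KO (5 of 6 found) against 103 to 164 in control, likewise not tested. In the other groups the macrophage sums overlapped control, but single genes of the list moved apart. Cd68 was at 22.6 to 50.6 CPM in Cpt2L-/-, 34.6 to 126 in DKO and 24.6 to 40.5 in Cpt2L-/- Ppara KO against 6.32 to 9.69 in control, while Clec4f was at 38.9 to 58.3 CPM and Vsig4 at 8.82 to 14.9 in DKO against 69.9 to 100 and 15.9 to 27.7 in control. Timd4 was lower in DKO too (2.99 to 4.28 against 4.47 to 10.8 CPM). In Ppara KO, Vsig4 was at 9.96 to 15.2 CPM, and its part in the results was not tested. Slc3a2, like Cd68, was highest in DKO, and the part of macrophages in its level was not tested.

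Among 37 other plasma membrane amino acid transporters, 16 had enough counts to be tested, and their calls are given beside the share of all genes called in either direction. In Cpt2L-/- none of the 16 rose and 5 fell, where 31.0% of all genes were called (16.2% higher, 14.9% lower). The fall of Slc7a7 (-0.73, edgeR adjusted p = 0.0338) was lost in 5 of 16 fits with 1 library left out (up to 0.104). Slc1a2 (glutamate) fell to 26.5 to 42.5 CPM against 242 to 313 CPM in control (log2 -3.12, edgeR adjusted p = 7.98e-09). Slc3a1, the heavy chain partner of the cystine carrier Slc7a9, fell there too (-2.69, edgeR adjusted p = 0.00198). In DKO 1 rose and 8 fell against control (36.4% of all genes, 19.3% higher and 17.1% lower). Among the falls was the LAT2 light chain Slc7a8 (-1.28, edgeR adjusted p = 0.000128). Slc1a2 was higher in DKO than in Cpt2L-/- (2.62, edgeR adjusted p = 1.16e-07), and it was the 1 list gene that was higher, while 2 were lower, Slc7a8 and the glutamine carrier Slc38a3 (18.3% of all genes). Against Tsc1L-/-, DKO was higher for none of the 16 and lower for 8 (32.2% of all genes, 16.9% higher and 15.2% lower). Tsc1 loss raised 1, the taurine carrier Slc6a6, and lowered 1, Slc6a13 (6.64% of all genes), and the rise of Slc6a6 was lost in 2 of 16 fits with 1 library left out (edgeR adjusted p up to 0.0597, without control replicate 2).

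In Ppara KO 2 of the 16 rose and 1 fell, where 29.0% of all genes were called. The fall, of Slc7a7 (-0.80, edgeR adjusted p = 0.0471), was lost in 13 of 16 fits with 1 library left out (edgeR adjusted p up to 0.135). Slc7a6, another light chain of Slc3a2, had a log2 change of 3.82 (edgeR adjusted p = 0.00639) that came from replicates 2 and 3, at 24.3 and 21.6 CPM against 0.548 and 1.24 CPM in replicates 1 and 4. Slc1a5 rose by 0.97 (edgeR adjusted p = 0.0183), a call lost in 3 of 16 fits with 1 library left out (edgeR adjusted p up to 0.0526, without control replicate 4). Cpt2L-/- Ppara KO was higher than Cpt2L-/- for 2 of them, Slc3a1 and Slc1a2, and lower than Ppara KO for 1, Slc7a6, where 18.4% and 25.5% of all genes were called. Without Ppara KO replicate 1 the last count was 3. Interactions passed for Slc1a2 (higher) and Slc38a3 (lower) with Tsc1, and for Slc1a2 and Slc3a1 (both higher) with Ppara (2.38% and 24.0% of all genes). The call for Slc38a3 was lost without DKO replicate 2 (edgeR adjusted p = 0.0628), and that for Slc3a1 in 12 of 16 fits with 1 library left out, up to 0.119 without control replicate 1.

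Atf4 and 27 further genes known as its targets were tested beside the members, which are not counted among them. In Cpt2L-/- 14 of the 28 rose and 3 fell, with a median log2 change of 0.74, where 31.0% of all genes were called in either direction (16.2% higher). In DKO 20 rose and 3 fell against control (median 1.38), where 36.4% of all genes were called (19.3% higher). Against Cpt2L-/-, 8 rose and none fell in DKO, where 18.3% were called (10.9% higher). Psat1, an enzyme of serine synthesis, had a log2 change of 3.89 in Cpt2L-/- (edgeR adjusted p = 0.000821) and 6.04 in DKO (edgeR adjusted p = 2.2e-05). Of the 9 members other than Slc7a11, Slc3a2 was higher in DKO than in Cpt2L-/-, and Slc7a5, Slc7a1, Slc7a2 and Slc1a4 were lower. The call for Slc3a2 was lost without Cpt2L-/- replicate 1, 2 or 3 or DKO replicate 2 or 3 (edgeR adjusted p from 0.0544 to 0.0961). Those for Slc7a5, Slc7a1 and Slc7a2 were lost without Cpt2L-/- replicate 4 (edgeR adjusted p = 0.0909, 0.244 and 0.0623). Tsc1 loss raised 7 of the 28 and lowered 1, where 6.64% of all genes were called (4.16% higher). Asns, asparagine synthetase, was at 50.4 CPM ± 43.1 (SD, n = 4) in Tsc1L-/- and 4.81 ± 2.95 in control.

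In Ppara KO 18 of the 28 rose and 4 fell (median 1.25), where 29.0% of all genes were called (15.9% higher), led by Gdf15 at 4.83 (edgeR adjusted p = 0.000254). Cpt2L-/- Ppara KO was called higher than Cpt2L-/- for 7 and lower for 1 (18.4% of all genes), and against Ppara KO the counts were 5 and 2 (25.5%). Without Cpt2L-/- Ppara KO replicate 1 these became 3 and 1, and 2 and 2. The interaction of Cpt2 and Ppara loss passed the test for 7 of the 28 list genes (24.0% of all genes), 1 positive and 6 negative, among the latter Gdf15, Chac1, Psat1 and Mthfd2. Without Cpt2L-/- Ppara KO replicate 1 the calls were 1 positive and 9 negative. The median over the 28 was -0.57, and the interaction of Tsc1 and Cpt2 loss passed for Psph alone. Atf4 itself was at 73.9 CPM ± 2.58 (SD, n = 4) in control, 90.9 ± 8.03 in Tsc1L-/-, 129 ± 33.6 in Cpt2L-/- and 144 ± 29.2 in DKO. It was at 183 ± 78.2 CPM in Ppara KO and 167 ± 48.7 in Cpt2L-/- Ppara KO.

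Genes whose changes were most like those of a member were found by the root mean square difference in log2 fold change against control over the 5 mutant genotypes. Closest to Slc6a9 was Esyt3 (0.201), closest to Slc3a2 were Gm13528 (0.23) and Rhoq (0.254), and closest to Slc7a5 was Card9 (0.219). For Slc1a4 the closest gene was Prkab2 (0.277), and for Slc7a1 it was Trmt61a (0.36). Slc7a2 and Slc38a2 had closer matches, Zfp955a (0.129) and Ttc39b (0.108), and Slc43a1 had Gm15502 (0.299). Slc7a11 was left out, since its folds against control libraries at 0 depend on the prior count. The points share control libraries, and no test was made of likeness.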

How the data were processed

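Liver RNA of 24 mice was measured by mRNA sequencing (TruSeq stranded libraries, single 75-base reads). The authors deposited raw read counts per gene with Ensembl identifiers and GRCm38 coordinates, and FPKM made from the same counts, gene length and library total, which recomputed values matched in 100% of cells within a relative tolerance of 1e-04. The submitters' processing notes name STAR 2.5, HTSeq 0.6.1, Bowtie 0.12.2, TopHat, STAR-Fusion, DESeq2 and edgeR, with builds mm8 and mm9, without saying which made these values; the strand setting of counting is not given in the sources used here, so reads shared with overlapping or antisense genes cannot be told apart.

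Counts were tested in R 4.3.3 with edgeR 4.0.16 (filterByExpr with a minimum count of 10 and minimum total of 15, TMM, robust quasi-likelihood fit, glmQLFTest, Benjamini-Hochberg), in 2 fits of 16 libraries without covariates. CPM used TMM factors over all 24 libraries. A gene with at most 3 counts in each library of a group was taken as at the floor, and floors cover counting error only. Within groups, 36 pairs of libraries were compared and none agreed within sampling noise. Alternatives were RLE scaling, no filter, DESeq2 1.42.0, a fit of 24 libraries, fits of only the groups compared, a replicate block and leaving out each library. The code was tested on simulated counts. Named genes were all members, the checks of the labels, at most 4 called genes per list and comparison with the largest change, and up to 3 genes most like each member whose group means spanned over 1 log2 unit. The members, lists and tests were chosen with earlier results of these data known. Other genes named with values were chosen after their values were seen.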

Additional observations from a re-analysis of the deposited data

Results flagged for a closer look

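Slc7a11 in Cpt2L-/- replicate 4 was at 10.1 CPM, while the other 3 libraries of the group were at 0.761 to 1.95 CPM. The gap to the nearest library was 0.872 of the range, above Dixon's 95% limit for 4 samples. It was the only such library among 58 groups of member values examined, and chance alone gives about 1 in 20 groups.

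The effect of Cpt2 loss differed with Tsc1 status for Slc7a5 (edgeR interaction adjusted p = 0.0187) and Slc43a1 (0.0216). Both calls were lost without DKO replicate 2 (0.0503 and 0.0575), and that for Slc43a1 also in the fit of 24 libraries (0.187). Slc7a5 was at a mean of 7.76 CPM in Tsc1L-/-, 10.8 CPM in Cpt2L-/- and 5.46 CPM in DKO. DKO differed from Cpt2L-/- (edgeR adjusted p = 0.0197) but not from Tsc1L-/- at the threshold (0.16). The call against Cpt2L-/- was lost without Cpt2L-/- replicate 4 or DKO replicate 1 or 2. Slc43a1 was at 13.5 CPM in Tsc1L-/- and 2.63 CPM in DKO.

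The effect of Cpt2 loss differed with Ppara status for Slc3a2 (edgeR interaction adjusted p = 0.000987), Slc7a5 (0.00147), Slc7a1 (0.00175), Slc1a4 (0.00765) and Slc6a9 (0.000309). Slc7a11 also passed (0.00995), but it was at 0 counts in control and entered the fit only through the groups in which it was detected, so nothing is read from that value. For Slc3a2 the means were 37.9 CPM in control, 121 in Cpt2L-/-, 124 in Ppara KO and 119 in Cpt2L-/- Ppara KO. For Slc6a9 they were 34.1, 125, 64.1 and 39.1 CPM in the same order.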

How the results depend on the processing

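For Tsc1L-/- against control the count of members called went from 2 to 1 with RLE scaling, with no filter, in the fit of the 2 groups only and with the replicate block, and to 0 in the fit of 24 libraries (5 members were under an unadjusted p of 0.05 by edgeR, and DESeq2 called 3); with libraries left out in turn it was 0 to 3. DKO against Cpt2L-/- went from 6 to between 2 and 7 with libraries left out, and without Slc7a11 from 5 to between 1 and 6. The interaction of Tsc1 and Cpt2 loss went from 2 to 4 with DESeq2 and 1 in the fit of 24 libraries, and ranged from 0 to 3 with libraries left out. Cpt2L-/- Ppara KO against Cpt2L-/- went from 3 to between 1 and 4. Cpt2L-/- Ppara KO against Ppara KO went from 2 to 1 with no filter and 0 in the fit of the 2 groups only (4 under an unadjusted p of 0.05 by edgeR, and 2 by DESeq2), and from 0 to 4 with libraries left out. For the remaining comparisons the count stayed within 1.5 times its value. The cause of these shifts was not tested.

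Of 43 calls of a member in a comparison, 29 were kept in all alternatives run, and none of the 937 alternative values reversed; without Slc7a11, 25 of 39 were kept. Same-numbered libraries were treated as unpaired, and the labels do not say how they were drawn. Correlations of their deviations ran from -0.26 to 0.17 in the first fit and -0.095 to 0.22 in the second. In these fits 3 of 16 and 8 of 16 libraries correlated best with their own number. Such values do not settle whether libraries were paired, least of all in the second fit. With the replicate block the count for DKO against control was 7, for DKO against Cpt2L-/- 7, for DKO against Tsc1L-/- 6, for Cpt2L-/- Ppara KO against Cpt2L-/- 4 and against Ppara KO 3, and the others kept their number apart from the one given above. Fits of the compared groups alone cannot give interactions. Depth limits Slc7a11, which had at most 4 counts in any control, Tsc1L-/- or DKO library.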
